A study of Mus musculus with 20 samples.

Results

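The CCN matricellular family was described over every library of an RNA-seq study of mouse hearts. Its members were taken by name: Ccn1 (formerly Cyr61), Ccn2 (Ctgf), Ccn3 (Nov), Ccn4 (Wisp1) and Ccn5 (Wisp2), 5 of the 55335 genes in the count table. The hearts came from C57BL/6N mice aged 3 to 5 months, either wild type (WT) or with OGFOD1 knocked out (KO). OGFOD1 is a prolyl hydroxylase of a ribosomal protein, and how the knockout was made is not given in the sources used here. For 2 weeks an osmotic minipump delivered either vehicle, made of PBS and sodium ascorbate, or isoproterenol, a beta-adrenergic agonist, dissolved in that vehicle. All mice were fed the NIH-31 diet. Each of the 4 groups, WT vehicle, WT isoproterenol, KO vehicle and KO isoproterenol, held 5 libraries made from powdered whole heart. The labels do not say that the libraries of a group came from different mice, so the p-values measure the spread between libraries, which may in part be technical.

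CCN proteins are secreted into the extracellular matrix, where they bind integrins, heparan sulfate proteoglycans and growth factors and alter how cells respond to them rather than forming fibres. Ccn1 and Ccn2 are textbook transcriptional targets of YAP and TAZ acting with TEAD factors, and Ccn2 is also a target of TGF-beta signalling and a widely used marker of cardiac fibrosis. Ccn4 and Ccn5 were first described downstream of Wnt signalling, and Ccn5 differs from its relatives in lacking the carboxy-terminal cysteine knot domain.

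On GRCm38, Ccn1 (ENSMUSG00000028195) lies at chr3:145646976-145649981 on the minus strand. The other members lie on the plus strand: Ccn2 (ENSMUSG00000019997) at chr10:24595442-24598683, Ccn3 (ENSMUSG00000037362) at chr15:54745702-54754039, Ccn4 (ENSMUSG00000005124) at chr15:66891320-66923201 and Ccn5 (ENSMUSG00000027656) at chr2:163820861-163833146. All 5 are annotated as protein coding. Their longest coding sequences encode 379, 348, 354 and 367 amino acids for Ccn1 to Ccn4 and 251 for Ccn5. All 5 were among the 14878 genes that passed the filter on low counts. The remaining CCN gene, Ccn6, did not pass, with 23 counts in all 20 libraries together and between 0 and 3 in each.

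The depth behind these values differed widely among members. Library totals ran from 14609808 to 43671055 counts with a median of 20471321, and genes of the mitochondrial genome took 55.5% to 61.9% of each. Per library, Ccn2 had 1940 to 10189 counts and Ccn1 494 to 1842. Ccn3 had 89 to 916 counts, Ccn4 23 to 100 and Ccn5 18 to 252, so counting error weighs most on Ccn4 and Ccn5. Ogfod1, the gene that was knocked out, stood at 16.9 to 21.8 CPM (counts scaled to a library of fixed size) in the 10 WT libraries and at 2.39 to 4.13 in the 10 KO libraries. Both WT vehicle replicate 2 and KO isoproterenol replicate 5 stood apart from their groups, with a chi-square per degree of freedom of at least 59.2 and 20.0 against each of the other libraries of the group, where the other pairs of those groups reached at most 11.1. WT vehicle replicate 2 had the highest Ccn3 and the lowest Ccn4 and Ccn5 of its group, and Ccn1 and Ccn2 within the range of the others. In KO isoproterenol replicate 5 the summed CPM of 8 smooth muscle and vessel wall markers was 3932, against 1168 to 1256 in the other libraries of its group. Over that group Des had the highest mean of these markers, 805 CPM, and Eln the widest spread (423 CPM, SD 860). KO isoproterenol replicate 5 also had the lowest sum of 8 cardiomyocyte markers, 23712 against 28853 to 30949. The isoproterenol differences of Ccn3, Ccn4 and Ccn5 in KO hearts are given with and without KO isoproterenol replicate 5. Some of their other comparisons are given only with all libraries. In whole-heart RNA, a change in the number of cells of a type and a change in RNA per cell cannot be told apart.

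Levels between genes were compared as CPM per kilobase of annotated exon. In WT vehicle hearts Ccn2 averaged 49.0 ± 9.4 CPM per kb (SD, n = 5), Ccn1 16.5, Ccn3 3.71, Ccn5 0.859 and Ccn4 0.393. The order Ccn2, Ccn1, Ccn3, Ccn5, Ccn4 was the order in 19 of the 20 libraries, so neighbours in it were separated within almost every library. The exception was WT isoproterenol replicate 4, in which Ccn5 exceeded Ccn3 by 1.24-fold per kb. The order was thus shared by both genotypes and both treatments, while the distances in it were not.

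**Figure D1:**
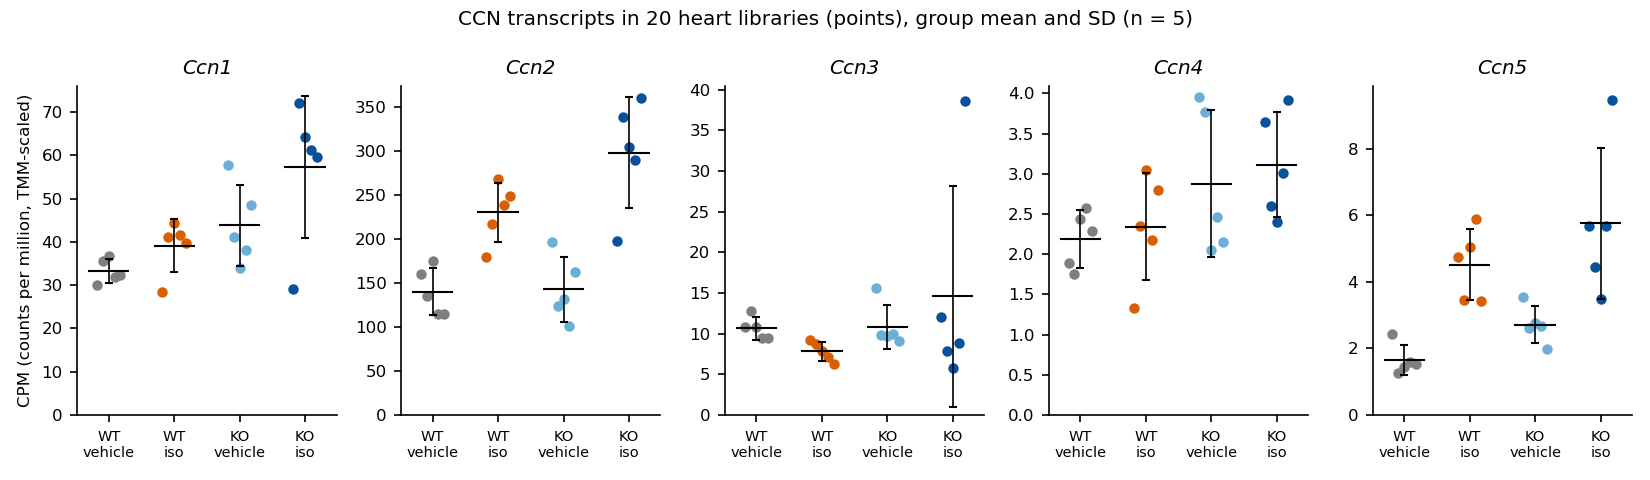
CPM of each CCN member (vertical axis, one panel a gene) in each library (points) of the 4 groups, with the group mean as a horizontal line and the SD as bars (n = 5). Ccn2 and Ccn5 sit higher under isoproterenol in both genotypes; the point far above the others in the Ccn3 panel, at 38.6 CPM, is KO isoproterenol replicate 5.

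Ccn5, a secreted protein that has been described as opposing the fibrotic actions of Ccn2, had the largest fold change of the family in WT hearts. In WT vehicle libraries Ccn5 was at 2.45, 1.26, 1.43, 1.60 and 1.53 CPM. In WT isoproterenol libraries Ccn5 was at 4.74, 3.47, 5.05, 5.90 and 3.42 CPM. Every isoproterenol library was above every vehicle library. The fitted difference was 1.47 on the log2 scale (SE 0.249, 95% interval 0.95 to 1.98), a 2.76-fold rise with an adjusted p of 5.25e-04 by edgeR's quasi-likelihood test with Benjamini-Hochberg adjustment over all genes. By fitted log2 fold change in WT, Ccn5 ranked 26 from the highest of the 14878 tested genes.

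Ccn2, the connective tissue growth factor, rose by less but from a far higher level. Its 5 WT vehicle libraries were at 161, 136, 175, 115 and 115 CPM. The 5 WT isoproterenol libraries were at 180, 217, 268, 239 and 249 CPM, all above the highest vehicle library. The log2 difference was 0.71 (SE 0.190, interval 0.31 to 1.12), or 1.64-fold, with an adjusted p of 0.0268. The call was close to the threshold: it was lost when any of 6 libraries was left out (adjusted p 0.0536 to 0.0713), namely WT isoproterenol replicate 3, 4 or 5 or WT vehicle replicate 2, 4 or 5, although the log2 difference stayed between 0.65 and 0.81 over all 20 such omissions.

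Ccn1, Ccn3 and Ccn4 did not pass in WT. Ccn1, the immediate-early family member once called Cyr61, was at 29.9, 35.6, 36.9, 31.9 and 32.5 CPM under vehicle and at 28.5, 41.1, 44.4, 41.7 and 39.8 under isoproterenol. The groups overlapped, and the log2 difference was 0.23 (interval −0.19 to 0.65, adjusted p = 0.532). Ccn1 in WT passed in none of the 20 omissions of a library. Ccn4, at 1.75 to 2.57 CPM under vehicle and 1.33 to 3.05 under isoproterenol, differed by 0.08 (adjusted p = 0.869).

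Ccn3, the member formerly named for its overexpression in nephroblastoma, was the only one with a lower mean under isoproterenol in WT. It was at 10.8, 12.8, 10.8, 9.42 and 9.44 CPM under vehicle and at 9.24, 8.69, 7.86, 7.12 and 6.22 under isoproterenol. The groups did not overlap, yet the log2 difference of −0.44 (SE 0.409) had an adjusted p of 0.576. The spread behind that SE is shared by all 4 groups and includes the KO isoproterenol library at 38.6 CPM. Without that library Ccn3 in WT was at −0.44 with an adjusted p of 0.125, and it passed in none of the 20 omissions of a library. A fit to the 2 WT groups alone gave −0.44 with an adjusted p of 0.0182. In all, 2 of 5 members rose in WT and none fell, where 8.76% of all tested genes passed (4.64% higher, 4.12% lower). Groups that did not overlap were found for Ccn2, Ccn3 and Ccn5, against 8.05% of all tested genes.

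The same members passed in KO hearts, with Ccn2 and Ccn5 at nearly equal fold changes. Ccn2 was at 196, 124, 132, 101 and 162 CPM in KO vehicle libraries and at 198, 338, 305, 290 and 360 in KO isoproterenol libraries. The groups were separated, though replicate 1 of the treated group exceeded the highest vehicle library only slightly. Ccn2 rose by 1.06 on the log2 scale (SE 0.191, interval 0.66 to 1.46), or 2.08-fold, with an adjusted p of 0.00201 by edgeR's test.

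Ccn5 was at 3.54, 2.60, 2.75, 2.69 and 1.97 CPM in KO vehicle libraries and at 5.69, 4.44, 3.49, 5.68 and 9.47 in KO isoproterenol libraries. The groups overlapped by a single library on each side. The log2 difference was 1.12 (SE 0.228, interval 0.64 to 1.59), or 2.17-fold, with an adjusted p of 0.00293. Without KO isoproterenol replicate 5, the highest library, it was 0.85 with an adjusted p of 0.0045.

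Ccn1 did not pass in KO, and its treated libraries were widely spread (57.3 ± 16.4 CPM, SD, n = 5). It was at 57.7, 41.2, 34.0, 38.1 and 48.5 CPM in KO vehicle libraries and at 29.2, 72.2, 64.4, 61.3 and 59.6 in KO isoproterenol libraries. Replicates 2 to 5 of the treated group all exceeded every vehicle library, while replicate 1 lay below all of them. The log2 difference was 0.38 (SE 0.195, interval −0.03 to 0.79, adjusted p = 0.261). Without replicate 1, singled out here for its low Ccn1, it was 0.55 with an adjusted p of 0.0130. A larger difference without that library follows from that choice, and Ccn1 passed in only 1 of the 20 omissions. The same library had the lowest Ccn2 of its group and the lowest summed CPM of 18 immediate early genes, 249.9 against 307 to 380, and its part in the Ccn1 result beyond this omission was not tested.

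Ccn3 in KO hearts was decided by 1 library. It was at 15.6, 9.84, 9.72, 9.97 and 9.10 CPM under vehicle and at 12.1, 7.81, 5.78, 8.86 and 38.6 under isoproterenol. The log2 difference was 0.46 (SE 0.388, adjusted p = 0.528) with all libraries and −0.32 (adjusted p = 0.356) without KO isoproterenol replicate 5, the library with the high vessel wall markers. Ccn4, at 2.05 to 3.96 CPM under vehicle and 2.40 to 3.91 under isoproterenol, differed by 0.12 (adjusted p = 0.785), and by 0.021 without KO isoproterenol replicate 5. In KO, 2 of 5 members rose and none fell, where 9.03% of tested genes passed (4.75% higher, 4.29% lower). Ccn2 was the one member whose KO groups did not overlap, against 8.06% of tested genes.

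Averaged over both genotypes, the log2 rise of Ccn5 was 1.29 (SE 0.169, adjusted p = 8.32e-06) and that of Ccn2 was 0.89 (SE 0.135, adjusted p = 1.84e-04). For Ccn1 the average was 0.31 (SE 0.139, adjusted p = 0.140), for Ccn4 0.10 (adjusted p = 0.692) and for Ccn3 0.01 (adjusted p = 0.982). Of all tested genes, 18.8% passed in this comparison. Without KO isoproterenol replicate 1, singled out for its low Ccn1, the Ccn1 average was 0.39 with an adjusted p of 0.00521. Without KO isoproterenol replicate 5 the Ccn3 average was −0.38 with an adjusted p of 0.0474. Each member passed in only 1 of the 20 omissions, so the calls of both turn on a single library.

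**Figure D2:**
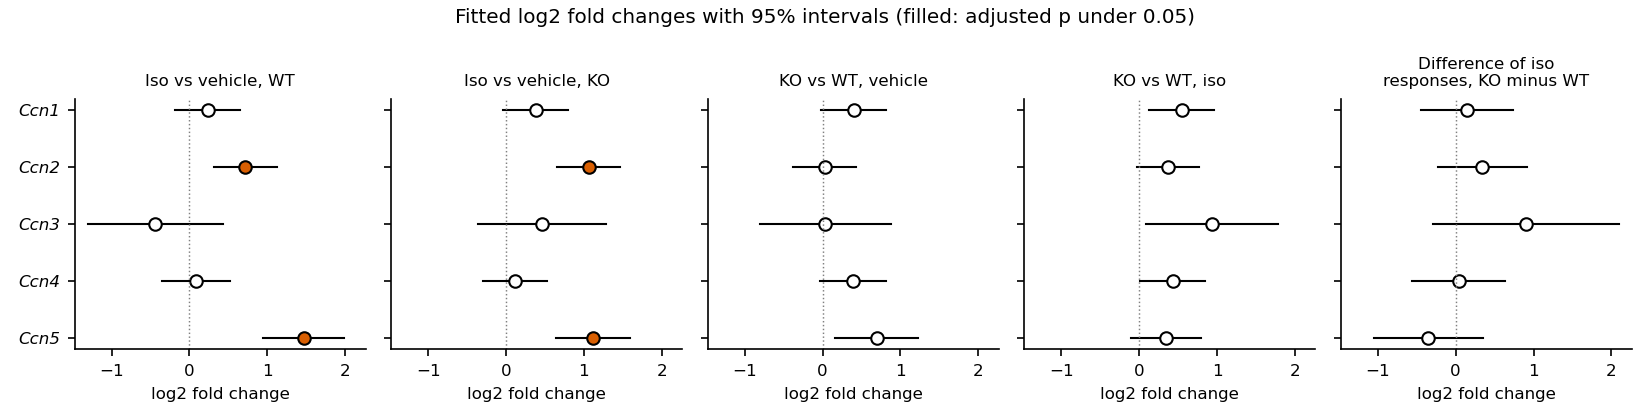
Fitted log2 fold changes of the 5 members (points) with 95% intervals (bars) in 5 comparisons, from edgeR's fit to all 20 libraries; filled points passed an adjusted p of 0.05. Ccn2 and Ccn5 are filled for isoproterenol in WT and in KO, and no point is filled for genotype or for the difference between the responses.

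Whether the knockout altered the response was tested by the difference between the isoproterenol effects, KO minus WT. It was 0.34 for Ccn2 (interval −0.22 to 0.91, adjusted p = 0.769) and −0.35 for Ccn5 (interval −1.05 to 0.35, adjusted p = 0.819). It was 0.15 for Ccn1 (interval −0.44 to 0.73), 0.04 for Ccn4 (−0.56 to 0.64) and 0.90 for Ccn3 (−0.29 to 2.09). Without KO isoproterenol replicate 5 the difference was 0.12 for Ccn3 (adjusted p = 0.919), −0.055 for Ccn4 and −0.61 for Ccn5 (adjusted p = 0.504). None passed, and each member's interval reached at least 0.64 on the log2 scale in 1 direction, so differences up to that size are not excluded. By edgeR 0.00% of all tested genes passed, with 1142 of 14878 at an unadjusted p under 0.05. DESeq2 called 1 gene and limma-voom 0, and none of them was a CCN member.

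Under vehicle, no member passed between KO and WT hearts, where 0.128% of tested genes passed. Ccn5 had the largest difference, 0.69 on the log2 scale (SE 0.260, interval 0.15 to 1.23, adjusted p = 0.430): 4 of its 5 KO vehicle libraries were above the highest WT vehicle library, and the lowest, at 1.97 CPM, was below it. Ccn1 differed by 0.40 (adjusted p = 0.615) and Ccn4 by 0.39 (adjusted p = 0.643). Ccn2 and Ccn3 each differed by 0.03, with adjusted p of 0.989 and 0.994.

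Under isoproterenol, 0.181% of tested genes passed between KO and WT, again with no CCN member among them. Ccn3 differed by 0.93 (SE 0.401, adjusted p = 0.345), and by 0.15 (adjusted p = 0.819) without KO isoproterenol replicate 5. Ccn1 differed by 0.55 (SE 0.196, interval 0.13 to 0.96, adjusted p = 0.261): the KO libraries at 59.6 to 72.2 CPM were above all WT libraries and the one at 29.2 was below 4 of them. Without that library, singled out for its low Ccn1, Ccn1 differed by 0.71 with an adjusted p of 0.0276. It passed in only 1 of the 20 omissions. The values for Ccn2, Ccn4 and Ccn5 were 0.37, 0.43 and 0.34, with adjusted p of 0.418, 0.377 and 0.540. Without KO isoproterenol replicate 5 that of Ccn5 was 0.073 (adjusted p = 0.918).

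Averaged over treatments, all 5 members had positive KO minus WT differences, 0.47 for Ccn1, 0.20 for Ccn2, 0.48 for Ccn3, 0.41 for Ccn4 and 0.52 for Ccn5. Without KO isoproterenol replicate 5 the difference of Ccn3 was 0.090 (adjusted p = 0.866) and that of Ccn5 0.38 (adjusted p = 0.231). With all libraries none passed edgeR's test (adjusted p 0.137 to 0.586), where 0.847% of tested genes did. The lowest adjusted p, 0.137, was that of Ccn1, followed by 0.171 for Ccn5. DESeq2 placed Ccn1 just past the threshold, at 0.47 with an adjusted p of 0.0499.

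Ccn2 made up a larger share of the family under isoproterenol. Summed per kb, the 5 members stood at 60.6 to 84.4 CPM per kb in WT vehicle libraries and 82.9 to 122 in WT isoproterenol libraries, and at 59.4 to 105 and 91.3 to 175 in the KO groups. Ccn2 made up 66.2% to 73.6% of that sum in WT vehicle libraries and 74.7% to 78.2% in WT isoproterenol libraries. In KO it made up 59.4% to 67.7% under vehicle and 72.2% to 75.6% under isoproterenol. In each genotype the treated range lay above the vehicle range.

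Ratios within a library do not depend on how the library was scaled. The per-kb ratio of Ccn2 to Ccn1, the paired YAP and TAZ targets, ran from 2.50 to 3.79 in WT vehicle and from 3.71 to 4.45 in WT isoproterenol libraries. In KO it ran from 1.87 to 2.74 under vehicle and from 3.31 to 4.77 under isoproterenol, with no overlap. The highest of these ratios, 4.77, was that of KO isoproterenol replicate 1, in which both genes were the lowest of their group.

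The ratio of Ccn5 to Ccn3 also separated the WT groups, at 0.147 to 0.338 under vehicle and 0.595 to 1.24 under isoproterenol. In KO it was 0.323 to 0.422 and 0.366 to 0.956, so the ranges overlapped. The ratio of Ccn3 to Ccn2 lay between 0.0615 and 0.0941 in WT vehicle and between 0.0249 and 0.0513 in WT isoproterenol libraries. The KO ranges of that ratio, 0.0560 to 0.0985 and 0.0189 to 0.107, overlapped. These ratios were chosen after the values had been seen and carry no test.

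**Figure D3:**
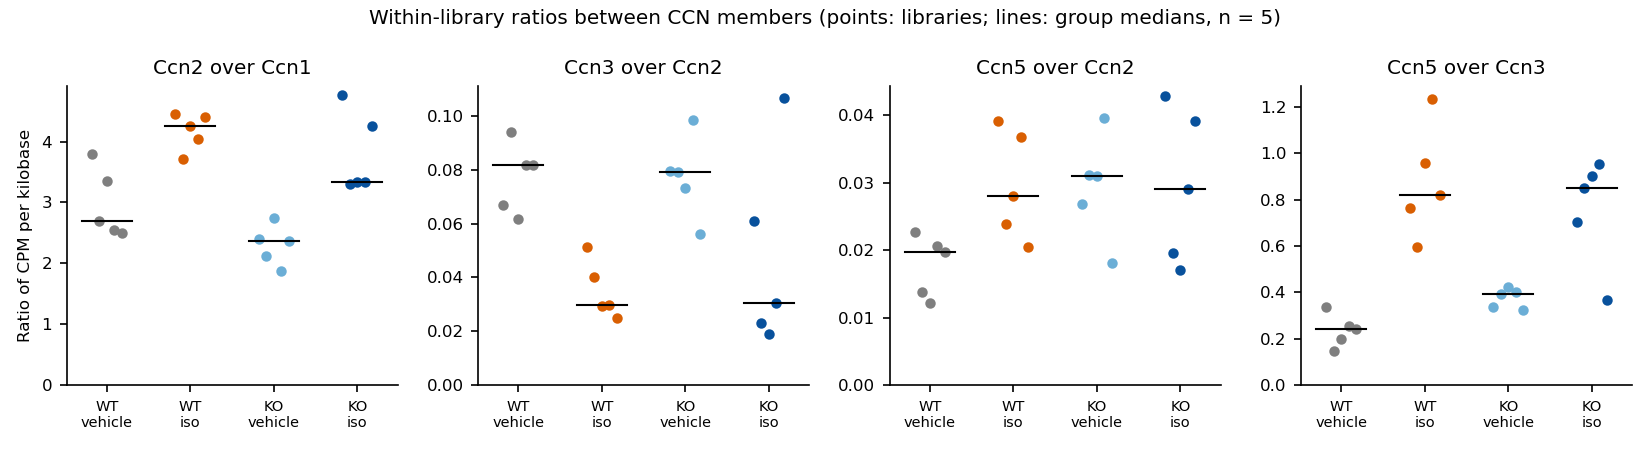
Per-kb CPM ratios between members (vertical axes) in each library (points) of the 4 groups, with group medians as lines. Ccn2 over Ccn1 is higher under isoproterenol in KO without overlap (3.31 to 4.77 against 1.87 to 2.74), and Ccn5 over Ccn3 is higher in WT without overlap (0.595 to 1.24 against 0.147 to 0.338).

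Within groups, Ccn1 and Ccn2 varied together. Over the 20 libraries, Spearman's correlation between their log2 CPM was 0.657 (Pearson's r 0.697), and over deviations from the group means it was 0.749 (r 0.774). Ccn2 and Ccn5 followed each other over all libraries (Spearman's correlation 0.743) but hardly within groups (Spearman's correlation 0.135). Ccn3 and Ccn5 had the next highest correlation within groups (Spearman's correlation 0.519), against −0.209 over all libraries. KO isoproterenol replicate 5 was the highest library of its group for both. These correlations describe the same 20 libraries, which share their RNA preparation and depth across genes, and no test was made of them.

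**Figure D4:**
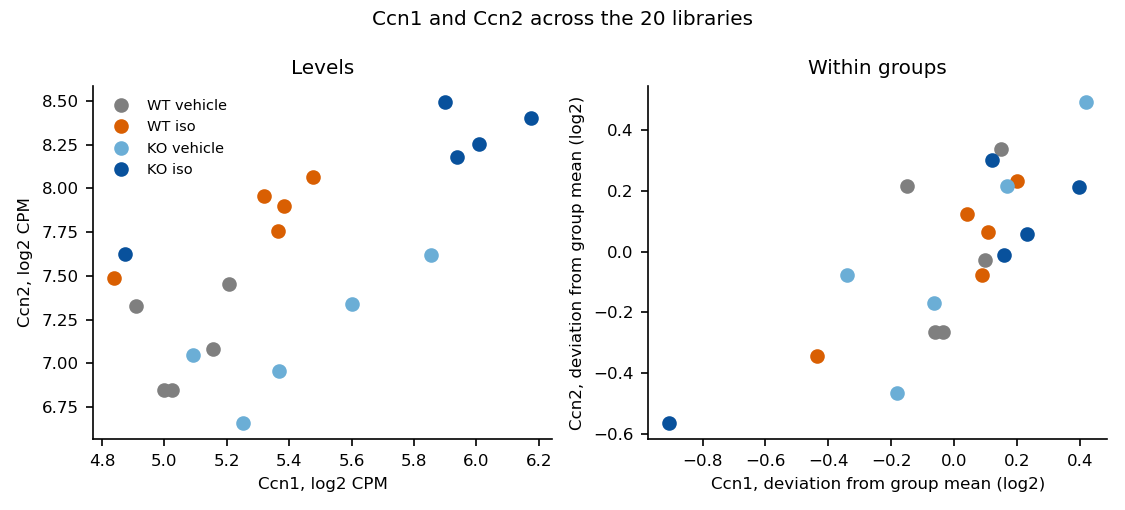
Log2 CPM of Ccn2 against Ccn1 in the 20 libraries, coloured by group (left), and the deviations of both from their group means (right). The deviations rise together (Spearman's correlation 0.749), with replicate 1 of WT isoproterenol and of KO isoproterenol low in both genes.

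Because Ccn1 and Ccn2 varied together and both are known TEAD targets, the stretch upstream of Ccn1 is shown. Of the 5 members, Ccn1 alone was matched in the RefSeq promoter table used (GRCm38.p6). The 250 bases before its start, chr3:145649986-145650235, read on the minus strand as follows, with matches to the TEAD motif GGAATG and to TGACG, the core of cAMP response elements, in capitals.

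Ccn1 promoter: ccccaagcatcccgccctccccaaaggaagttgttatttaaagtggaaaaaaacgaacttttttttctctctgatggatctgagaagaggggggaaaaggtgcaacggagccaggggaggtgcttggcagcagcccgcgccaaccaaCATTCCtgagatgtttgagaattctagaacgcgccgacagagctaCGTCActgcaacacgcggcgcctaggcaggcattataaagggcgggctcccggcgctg

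Both strands were searched. GGAATG was matched once, on the opposite strand as CATTCC, 103 to 98 bases before the start, and TGACG once, on the opposite strand as CGTCA, 58 to 54 bases before it. The motifs do not overlap each other. TATAAA, the TATA box, was matched 25 to 20 bases before the start, and the SMAD motif CAGAC was not matched in this window. Of 32851 promoters in the table, the same window holds GGAATG in 12.6%, TGACG in 17.8%, TATAAA in 12.4% and CAGAC in 42.2%. A match is a description of these letters and not a measured binding site.

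The genes whose levels followed each member most closely were ranked among 11562 genes by Spearman's correlation over the 20 libraries. For Ccn1 they were Rnd3 (0.823), Otud1 (0.803), a deubiquitinase, Adamts1 (0.783), a matrix protease, Erf (0.776), a transcriptional repressor, and B3gnt8 (0.761). Over deviations from the group means Ccn1 was followed by Otud1 (0.824), Ier5 (0.758), itself an immediate early gene, Ccn2 (0.749), the integrin subunit gene Itga5 (0.731) and the pseudokinase gene Trib1 (0.710).

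For Ccn2 the closest were Atp8b2 (0.914), Map3k12 (0.904), Atrnl1 (0.902), Pdlim3 (0.899), which encodes a Z-disc protein, and Rgs10 (0.866), a regulator of G-protein signalling. Within groups Ccn2 was followed most closely by Kdelr3 (0.755), a retrieval receptor for endoplasmic reticulum proteins, Ccn1 (0.749), Srpk1 (0.744), Lrch3 (0.738) and Itga5 (0.735). Itga5, which encodes the alpha subunit of the fibronectin receptor, was thus among the 5 closest within groups for both Ccn1 and Ccn2.

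For Ccn5 the closest were Tmed3 (0.926), a cargo receptor of the early secretory pathway, Itgbl1 (0.923), Fgl2 (0.920), Maged2 (0.917) and Mfap5 (0.914), a microfibril protein and one of the fibroblast markers. Ccn3 was followed by Zfp9 (0.791), Thnsl2 (0.786), Ramp1 (0.779), Cped1 (0.776) and Enpp5 (0.755). Ccn4 was followed by Tubb6 (0.771), Mgp (0.719), Arl15 (0.717), Npr3 (0.713) and A4galt (0.705). All points share the same 20 libraries, and the correlation over all libraries also carries the difference between treatments.

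Markers of some cell types moved with isoproterenol as well. Their counts stand beside 8.76% of all tested genes passing in WT (4.64% higher, 4.12% lower) and 9.03% in KO (4.75% higher, 4.29% lower). The summed CPM of 10 fibroblast markers was 1018 to 1143 in WT vehicle and 1223 to 1376 in WT isoproterenol libraries, and 1141 to 1337 and 1353 to 2377 in the KO groups, the 2377 being KO isoproterenol replicate 5. In each genotype 4 of the 10 markers rose and none fell, and none was at 0. Pericyte marker sums were 739 to 800 against 892 to 971 in WT and 754 to 830 against 885 to 969 in KO. Macrophage marker sums were 149 to 177 against 171 to 276 in WT and 175 to 188 against 198 to 232 in KO. Of 6 pericyte markers 2 rose in WT and 3 in KO. Of 8 macrophage markers 5 rose in WT and 2 in KO, and no marker of either list fell. Endothelial marker sums were 614 to 643 against 665 to 754 in WT, where 3 of 8 markers rose, and 643 to 737 against 617 to 696 in KO, where Kdr fell and no other passed. The 8 cardiomyocyte markers, as the tissue label calls for, were the most abundant of these lists, at 32999 to 38879 against 28515 to 31248 in WT and 30889 to 33346 against 23712 to 30949 in KO. Of these 8, Myl2 and Myh6 fell in WT and Myl2 in KO. Averaged over genotypes, where 18.8% of all tested genes passed, Myl2 (−0.43), Myh6 (−0.36) and Tnnt2 (−0.18, adjusted p = 0.0225) were lower. Ryr2 was higher in that comparison (0.18, adjusted p = 0.0072). Myh6 was the largest part of the sum, at means of 14910 CPM in WT vehicle and 10520 in WT isoproterenol libraries. Of the smooth muscle and vessel wall markers Smtn fell in WT and none passed in KO, and of the chondrocyte and valve markers Acan and Comp rose in KO and none passed in WT. No endocardial, mesothelial and epicardial, adipocyte, lymphocyte, erythroid or Schwann marker passed in either genotype. Low counts limited 3 of these lists: only 1 of 6 lymphocyte markers (Ptprc), 4 of 6 adipocyte and 3 of 4 Schwann markers were tested. Averaged over genotypes, 7 of 10 fibroblast, 7 of 8 macrophage and 4 of 6 pericyte markers were higher and none lower. Of 8 endothelial markers 3 were higher and 1 lower. Of 6 tested chondrocyte and valve markers 1 was higher and 1 lower. The endocardial marker Plvap was lower (−0.31, adjusted p = 0.0228). No smooth muscle and vessel wall, mesothelial and epicardial, adipocyte, lymphocyte, erythroid or Schwann marker passed there. The part of these marker differences in the CCN results was not tested beyond the measure that follows.

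Set against the fibroblast markers, Ccn5 remained higher in WT. Per 1000 CPM of those markers, Ccn5 was at 1.24 to 2.20 CPM in WT vehicle and 2.61 to 4.83 in WT isoproterenol libraries, without overlap. In KO it was at 1.73 to 2.65 and 2.58 to 4.07, with a narrow overlap. Ccn2 was at 101 to 162 and 146 to 195 in WT and at 78.9 to 147 and 141 to 225 in KO, with overlap in both. Ccn1 was at 26.9 to 34.9 and 23.2 to 34.1 in WT and at 27.5 to 43.2 and 20.9 to 47.6 in KO, also with overlap in both. Most of the marker sum was Gsn and Dcn, at means of 584 and 299 CPM in WT vehicle libraries. Their log2 differences in WT, 0.23 and 0.18, were below the list's median of 0.27. The measure thus mainly sets the members against these genes and is not a correction for fibroblast content. It was chosen after the values had been seen, has no test, and does not say which cells made the transcripts.

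The counts of the following lists of genes around the CCN proteins stand beside 8.76% of all tested genes passing in WT and 9.03% in KO. No gene of these lists passed the difference between the responses, so unequal counts in WT and KO do not show that the responses differed. The KO counts and medians include KO isoproterenol replicate 5, and no list was counted without it. Of 17 integrin, proteoglycan and other receptor genes reported to bind CCN proteins, 15 were tested and 2 passed in each genotype. In WT, Itgb2, the beta subunit of leukocyte integrins, rose by 0.71 (SE 0.164, adjusted p = 0.00644) and Notch1 fell by 0.37 (adjusted p = 0.0131). In KO, Itga5 rose by 0.32 (adjusted p = 0.0159) and Itgb2 by 0.55 (adjusted p = 0.0350). The list's median log2 difference was 0.03 in WT and 0.24 in KO, against 0.0039 and 0.012 over all tested genes.

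Of 16 genes of the Hippo pathway, which restrains YAP and TAZ, 1 rose and 1 fell in WT and none passed in KO. In WT Wwtr1, which encodes TAZ, rose by 0.31 (adjusted p = 0.00204) and Tead1, a DNA-binding partner of YAP and TAZ, fell by 0.37 (adjusted p = 0.00104). The list's medians were 0.09 and 0.10. Of 19 tested genes of a YAP and TAZ target signature, with the CCN members left out, 3 rose and 1 fell in WT and 7 rose and none fell in KO, with medians of −0.08 and 0.22.

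In WT the targets that rose were Ccdc80, a secreted matrix protein gene (0.50, adjusted p = 1.3e-06), Myof (0.41) and the receptor tyrosine kinase gene Axl (0.25), while Ptpn14, whose product binds YAP, fell by 0.28 (adjusted p = 0.0281). In KO the 4 with the smallest p were Ccdc80 (0.54, adjusted p = 2.09e-07), Axl (0.32), Tgfb2 (0.72, adjusted p = 0.00309) and Myof (0.38).

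Of 20 genes of TGF-beta signalling, 2 rose in WT and 6 in KO and none fell, with medians of 0.07 and 0.23. The receptor genes passed in both genotypes: Tgfbr1 rose by 0.38 in WT (adjusted p = 0.00476) and 0.47 in KO (adjusted p = 3.93e-04), and Tgfbr2 by 0.31 (adjusted p = 0.00284) and 0.35 (adjusted p = 7.17e-04). In KO the matrix protein gene Tgfbi rose by 0.52 (adjusted p = 7.67e-04) and the ligand gene Tgfb2 by 0.72, as above. Of 12 Wnt target genes only 5 were tested: Apcdd1, a Wnt inhibitor gene, rose by 0.57 in WT (adjusted p = 0.00783) and 0.61 in KO (adjusted p = 0.00317), and Nkd2, another inhibitor, by 0.54 in KO (adjusted p = 0.0456).

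None of 18 immediate early genes passed in either genotype, with medians of 0.01 in WT and 0.11 in KO. Averaged over genotypes 3 of the 18 passed, where 18.8% of all tested genes did: Atf3, a stress-induced transcription factor gene, rose by 1.67 (adjusted p = 0.00569), and Dusp1 and Klf4 fell by 0.37 and 0.36.

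Among 14 other matricellular genes, 5 rose in WT and 11 in KO, and none fell. Their medians were 0.37 and 0.79. In WT these were Thbs3 (0.76, adjusted p = 1.16e-04), Cilp, a cartilage intermediate layer protein gene (1.52, adjusted p = 7.63e-04), Postn, which encodes periostin of activated fibroblasts (1.40, adjusted p = 0.0161), the thrombospondin gene Thbs2 (0.34) and Sparcl1 (0.35). In KO the 4 with the smallest p were Thbs2 (0.64) and Thbs3 (0.90), both at 9.81e-06, Spp1, which encodes osteopontin (1.48, adjusted p = 8.23e-04), and Cilp (1.35, adjusted p = 0.00133). Ccn5's rise in WT, 1.47, lay between those of Cilp and Postn, and that of Ccn2, 0.71, was close to that of Thbs3. The summed CPM of these 14 genes in KO isoproterenol replicate 5 was 1715, compared with 795 to 976 in the group's other libraries.

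**Figure D5:**
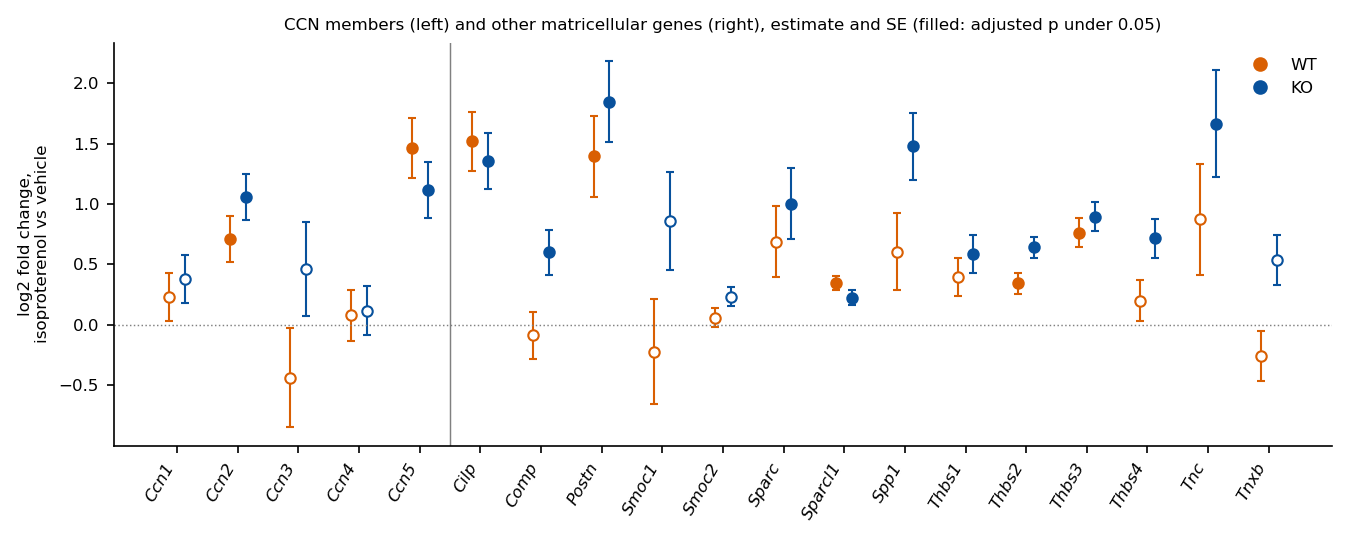
Log2 fold change of isoproterenol against vehicle (± SE) in WT (orange) and KO (blue) for the CCN members (left) and 14 other matricellular genes (right); filled points passed an adjusted p of 0.05. Of the other matricellular genes 5 are filled in WT and 11 in KO, all of them above 0.

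Between genotypes, none of these listed pathway genes passed under vehicle or under isoproterenol. Averaged over treatments, 0.847% of all tested genes passed edgeR's test. Of 19 tested YAP and TAZ targets 2 were higher in KO, Ccdc80 (0.19, adjusted p = 0.0188) and Rbms3 (0.25, adjusted p = 0.0495). Of 20 TGF-beta genes 1 was higher, Tgfbr1 (0.27, adjusted p = 0.0212), and no gene of the other pathway lists passed. Of 10 fibroblast markers 2 were higher, Dcn (0.19, adjusted p = 0.0165) and Lum (0.28, adjusted p = 0.0429), and no marker of the other lists passed.

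An annotated transcript on the opposite strand, Gm15270, shares 665 exon bases with Ccn2, 23.2% of Ccn2's exon length. It had 26 to 122 counts a library, 0.853% to 2.73% of Ccn2's. The kit marks strand, but the strand setting of the counting is not given in the sources used here, so reads from the shared bases may be divided between the genes in a way that was not tested. Among the transcripts of the members, Ccn2 and Ccn3 share 2 different sequences of 25 bases, which may overlap each other. No other pair shares any, so few reads could fit more than 1 member.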

How the data were processed

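RNA was sequenced from 20 heart libraries, 5 in each of 4 groups taken from the labels. The authors deposited raw read counts per gene; per the submitters' processing notes, the tools were HISAT2 2.1.0, featureCounts 1.6.3, R 3.6.0 and limma 3.40.6 on GRCm38. Strand setting, annotation release and the handling of multi-mapping reads are not given in the sources used here. Of 55335 genes, 55154 were named from GENCODE vM21. Libraries of a group all differed beyond sampling noise (chi-square per degree of freedom at least 3.82).

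Genes that passed filterByExpr (14878) were fitted with edgeR 4.0.16 (TMM scaling, quasi-likelihood test with robust dispersion, 1 mean per group, all 20 libraries, 16 residual degrees of freedom). The p-values were adjusted over all tested genes by Benjamini-Hochberg and passed under 0.05. CPM are TMM-scaled, and log2 CPM used a prior count of 2. Standard errors and 95% intervals come from the fit. Tested on simulated counts for isoproterenol in WT (14693 genes), the fit recovered 52 of 100 genes changed 1.5-fold and 83 of 100 changed 2-fold, with 5 false among 140 calls.

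Members and gene lists were chosen with earlier results of these data known. Named were the members, Ogfod1, up to 4 passing genes with the smallest p per pathway list and comparison, and the 5 genes with the highest Spearman's correlation with each member (average log2 CPM of at least 0, named symbols, leaving out predicted, clone and mitochondrial names). In a few places a passing gene beyond those 4 was named after its values were seen. Alternatives were DESeq2 1.42.0, other scalings, no low-count filter, limma-voom (limma 3.58.1), no mitochondrial genes, 2 surrogate variables (sva 3.50.0), only the groups compared, and each library left out. Leaving out WT vehicle replicate 2 and KO isoproterenol replicate 5 together, the within-library ratios, the measure per fibroblast marker CPM, the search for an antisense partner and the motifs were chosen after seeing the data.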

Additional observations from a re-analysis of the deposited data

Results flagged for a closer look

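Dixon's ratio was taken on log2 CPM. In 3 of the 20 combinations of member and group, 1 library was flagged. Its gap to the next library exceeded 0.710 of the group's range, the 95% critical value for 5 samples. Chance alone gives about 1 in 20. The Ccn3 value of 38.6 CPM in KO isoproterenol replicate 5 was not flagged on that scale (ratio 0.614). Ccn1 in WT isoproterenol replicate 1 was 28.5 CPM, and the next lowest library of that group was at 39.8 CPM. Ccn1 in KO isoproterenol replicate 1 was 29.2 CPM, and the next lowest was at 59.6 CPM. Both libraries were also the lowest of their groups for Ccn2. Ccn3 in KO vehicle replicate 1 was 15.6 CPM, and the next highest library was at 9.97 CPM; that library also had the highest Ccn1, Ccn2, Ccn4 and Ccn5 of its group.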

How the results depend on the processing

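Over all alternatives, 946 of the members' log2 fold changes kept their direction and their side of the threshold, 38 changed sign, 8 kept their sign and passed where they had not, and 8 no longer passed. Of the 38, 2 also passed, both for the average isoproterenol difference of Ccn3 (adjusted p = 0.0420 with 2 surrogate variables and 0.0474 without KO isoproterenol replicate 5). The rises of Ccn5 in WT (1.28 to 1.65) and KO (0.85 to 1.25) and of Ccn2 in KO (0.96 to 1.20) passed in all 20 omissions of a library and in the 9 other settings. The count of members passing under isoproterenol in WT went from 2 to 1 with 2 surrogate variables (Ccn2 0.71, adjusted p = 0.0652), to 1 without both libraries that stand apart (Ccn2 0.70, adjusted p = 0.0515), to 3 in a fit to only the WT groups, where Ccn3 also passed, and ranged from 1 to 2 over omissions. The count for KO against WT averaged over treatments went from 0 to 1 with DESeq2 (Ccn1) and to 1 with no low-count filter (Ccn5 0.51, adjusted p = 0.00177). It ranged from 0 to 1 over omissions. Ccn1 passed at 0.56 (adjusted p = 0.00443) without KO isoproterenol replicate 1, the library with the lowest Ccn1 of its group, and in no other of the 20 omissions. The count for KO against WT under isoproterenol ranged from 0 to 1 over omissions, and that under vehicle became 1 with no low-count filter (Ccn5 0.70, adjusted p = 0.0238).

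Signs changed mostly for Ccn3. Its average isoproterenol difference was −0.32 with 2 surrogate variables, −0.013 with DESeq2, −0.28 with limma-voom, −0.00030 with upper quartile scaling and −0.35 without both libraries that stand apart, and −0.38 to 0.11 over omissions. In KO its isoproterenol difference was −0.17 with 2 surrogate variables, −0.14 with limma-voom and −0.32 without both libraries, and −0.32 to 0.66 over omissions. The genotype difference of Ccn3 under vehicle was −0.041 with 2 surrogate variables and −0.14 to 0.098 over omissions, and that of Ccn2 was −0.00040 with 2 surrogate variables, −0.026 with limma-voom and −0.11 to 0.13 over omissions. Ccn4 under isoproterenol in WT was −0.018 with 2 surrogate variables and −0.032 to 0.21 over omissions, and its difference between the responses was −0.090 to 0.18 over omissions. Apart from the Ccn3 values that turn on KO isoproterenol replicate 5, the cause was not tested.

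Over all genes, calls ranged from 10 to 117 around 19 for KO against WT under vehicle, from 10 to 250 around 27 under isoproterenol, from 74 to 350 around 126 averaged over treatments, and from 0 to 34 for the difference between the responses, the highest in each case with no low-count filter. DESeq2 gave no adjusted p for Ccn5 between genotypes under isoproterenol. Fits to only the groups compared were not run where a contrast uses all 4 groups. Counts limit Ccn4 and Ccn5 most. No paired analysis was possible because the replicate numbers follow the order of the samples and the labels tie no library of one group to a library of another.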
